A study of Rattus norvegicus with 6 samples.

Results

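The genes described here are 10 members of the transforming growth factor beta (TGF-beta) system: the ligands Tgfb1, Tgfb2 and Tgfb3, the receptors Tgfbr1, Tgfbr2 and Tgfbr3, the intracellular mediators Smad3 and Smad7, the bone morphogenetic protein (BMP) ligand Bmp4 and the BMP antagonist Chrdl1. They were chosen by name, and all 10 are among the 63280 gene symbols of the array. Where several transcript clusters (the array's gene-level units) carried 1 symbol, the cluster of highest mean over the 6 arrays stood for the gene. RNA came from dorsal root ganglia of male Sprague-Dawley rats, 3 diabetic and 3 control, with 1 array per rat and the ganglia of both sides at lumbar levels 3 to 6 pooled within a rat. Diabetic rats had received 1 intraperitoneal dose of streptozotocin at 65 mg/kg, a toxin that kills pancreatic beta cells, and control rats citrate buffer. Ganglia were taken 8 weeks later, and treated rats whose non-fasting glucose was below 16.7 mM at week 1 had been excluded. The model is therefore one of insulin loss by a toxin and not of an inherited or diet-induced diabetes. The labels give the weight of the rats (180 to 220 g) and no age.

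TGF-beta ligands are secreted as latent complexes bound to matrix and must be released before they bind. The released dimer binds the type II receptor (Tgfbr2), which recruits and phosphorylates the type I receptor (Tgfbr1), and betaglycan (Tgfbr3) presents ligand to them. The active receptor phosphorylates Smad2 and Smad3, which enter the nucleus with Smad4, while Smad7 is induced by the signal and shuts the receptor down. BMP4 acts through its own receptors and Smad1, Smad5 and Smad9, and chordin-like proteins such as Chrdl1 bind BMPs outside the cell and keep them from their receptors. In peripheral nerve and ganglia the system is known for matrix production by fibroblasts, for Schwann cell differentiation and for neuron survival.

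In these ganglia no gene of the set passed the adjusted threshold between diabetic and control rats (0 of 10 with limma adjusted p under 0.05, against 0.00581% of all 68842 clusters). Chrdl1 was 1.76-fold lower in diabetic ganglia and Tgfb1 was 1.59-fold higher, each without overlap between the 3 diabetic and 3 control arrays. They were the 2 of 10 genes with an unadjusted p under 0.05, a rule that 7.85% of all clusters met (2.73% higher, 5.11% lower). Of the lead clusters of coding genes 7.30% met it, 886 higher and 746 lower. The direction over all clusters turns with the scaling. After median centring 3707 of all clusters were higher and 1923 lower by this rule, against 1881 and 3521. The ligands did not share a direction: the means of Tgfb1 and Tgfb2 were higher and that of Tgfb3 was lower. The 3 receptors differed by at most 0.10 on the log2 scale. Arrays of the groups did not overlap for 4 of the 10 genes, 2 higher (Tgfb1, Bmp4) and 2 lower (Tgfb3, Chrdl1), where 13.3% of all clusters showed no overlap (4.96% higher, 8.32% lower) and 15.2% of coding genes. Means were higher for 6 of 10 genes and lower for 4, with a median log2 fold change of 0.02, against 38.2% higher and a median of -0.04 over all clusters and 49.7% higher among coding genes. With each array centred on its median the split was 8 higher and 2 lower, and 59.2% of all clusters were then higher. Centring moves the difference of every cluster up by the same amount, and the median over all clusters became 0.03. The share of coding genes with a higher mean was not counted after centring.

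The arrays were close to each other, with Pearson's r of 0.993 to 0.997 across 68842 clusters. Signals are deposited on the log2 scale, and 1 unit is a doubling of signal. The 1153 negative control probe sets of the array (named so in their identifiers) serve here as the measure of background, and their 90th percentile lay between 6.06 and 6.67 per array. Tgfb2, Tgfb3, Tgfbr1, Tgfbr2, Tgfbr3 and Chrdl1 exceeded that percentile in 6 of 6 arrays. Tgfb1 exceeded it in the 3 diabetic arrays, and in diabetic replicate 1 only just (6.07 against 6.06). Smad3, Smad7 and Bmp4 lay under it in every array, so their differences are differences between dim signals. Diabetic minus control, these probe sets differed by -0.11 in the median, so dim signals tended to read lower in diabetic arrays. The 10 sensory neuron markers exceeded the percentile in 6 of 6 arrays each. In whole ganglia, fewer cells of a type and less RNA per cell cannot be told apart.

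Promoter sequences are shown for Chrdl1 and Tgfb1, the 2 genes of the set with an unadjusted p under 0.05, and for Bmp4. Bmp4 encodes a BMP ligand that Chrdl1 can bind, and its own signal was not told apart from background. Each window runs from 250 bases before to 50 bases after the RefSeq gene start in the assembly GRCr8, 5′ to 3′ on the gene's strand. Chrdl1 lies on the minus strand at chrX:111789612-111789911, Bmp4 on the minus strand at chr15:22101884-22102183 and Tgfb1 on the plus strand at chr1:90324062-90324361. Capitals mark CAGAC or its reverse complement GTCTG, the short motif that Smad3 and Smad4 bind.
Chrdl1: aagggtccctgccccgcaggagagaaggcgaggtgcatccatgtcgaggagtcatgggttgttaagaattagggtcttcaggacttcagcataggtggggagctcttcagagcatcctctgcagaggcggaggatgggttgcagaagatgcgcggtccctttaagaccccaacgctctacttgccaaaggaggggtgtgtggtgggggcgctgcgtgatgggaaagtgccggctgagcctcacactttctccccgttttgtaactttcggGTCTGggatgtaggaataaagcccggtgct
Bmp4: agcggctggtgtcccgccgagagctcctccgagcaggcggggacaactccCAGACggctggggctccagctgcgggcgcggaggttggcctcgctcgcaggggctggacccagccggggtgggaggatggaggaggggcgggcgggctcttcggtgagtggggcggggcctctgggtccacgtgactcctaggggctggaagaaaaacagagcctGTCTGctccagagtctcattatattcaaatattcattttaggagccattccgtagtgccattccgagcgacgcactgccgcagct
Tgfb1: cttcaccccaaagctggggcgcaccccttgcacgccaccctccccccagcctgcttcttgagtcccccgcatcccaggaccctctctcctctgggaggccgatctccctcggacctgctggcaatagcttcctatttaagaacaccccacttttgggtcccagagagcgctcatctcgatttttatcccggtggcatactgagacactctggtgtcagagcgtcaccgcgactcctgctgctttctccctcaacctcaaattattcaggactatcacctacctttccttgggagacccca
Chrdl1 held the motif 1 time and Bmp4 2 times, and the windows of the other 8 genes held 0 matches. Over all 33469 rat promoters of 300 bases in the table, 50.1% held it on either strand. The palindrome GTCTAGAC, a stronger Smad site known from the mouse Smad7 promoter, was in 0 of the 10 windows and in 0.197% of all. A match describes these letters only, and windows this short leave out distal elements.

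**Figure D1:**
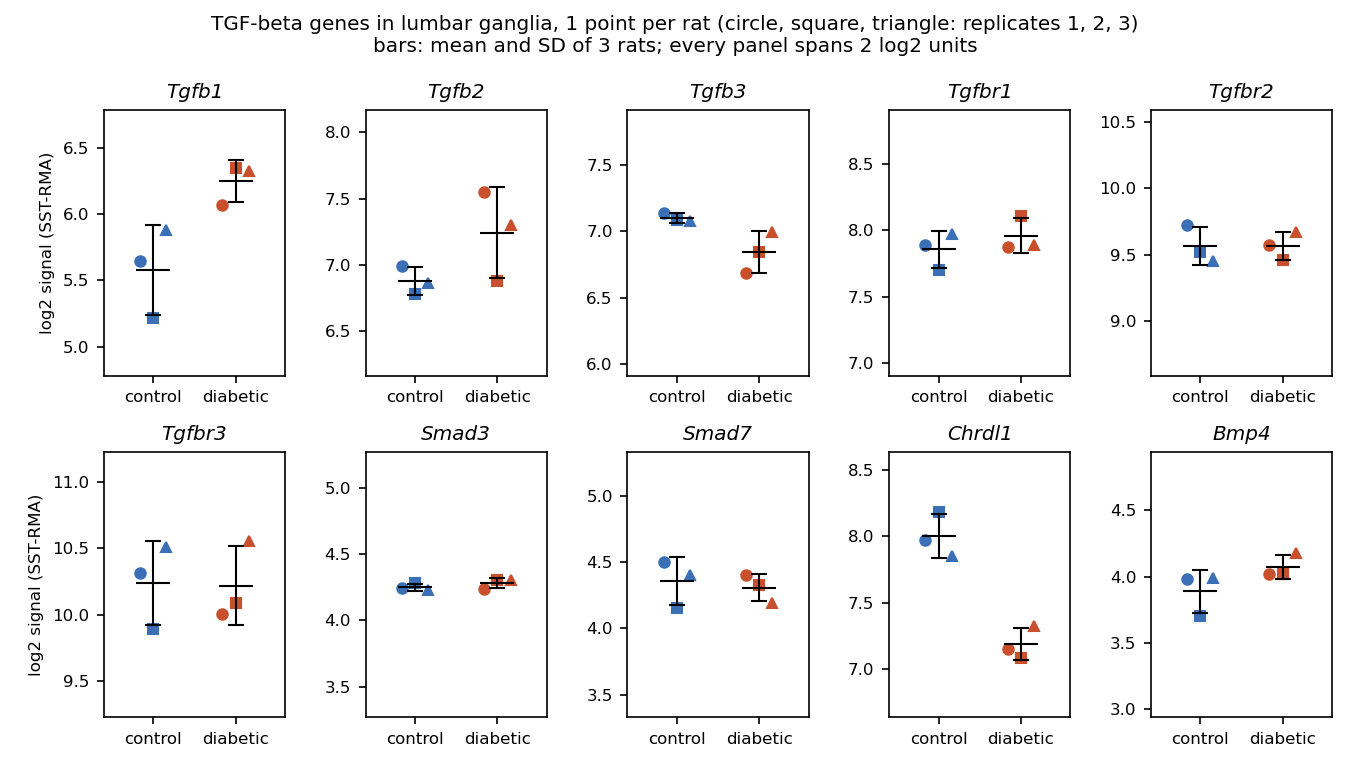
Log2 signal of the 10 TGF-beta genes in control (blue) and diabetic (red) ganglia, 1 point per rat, with the mean and SD of 3 rats as black bars. Each panel spans the same range of log2 units around its own values. Chrdl1 (7.85 to 8.18 in controls, 7.08 to 7.32 in diabetic rats) and Tgfb1 (5.21 to 5.88 and 6.07 to 6.35) show the widest separation.

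Tgfb1, the ligand made by many cell types and known for driving fibrosis, was higher in diabetic ganglia. Control replicates 1, 2 and 3 read 5.65, 5.21 and 5.88, and diabetic replicates 1, 2 and 3 read 6.07, 6.35 and 6.32 (log2 signal, chromosome 1, 82480875 to 82497196, plus strand). The lowest diabetic array was above the highest control array by 0.19, and control replicate 2 was the lowest of the 6. The means were 5.58 ± 0.34 and 6.25 ± 0.16 (SD, n = 3), a log2 fold change of 0.67 with a 95% interval of 0.27 to 1.07 (SE 0.18, limma adjusted p = 0.53). The control signals lay above the median of the negative controls but under their 90th percentile, so the fold rests on signals near background and is an estimate only. Without control replicate 2 the difference was 0.48, and without control replicate 3 it was 0.82.

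Macrophage markers stood beside it. Their means were higher in diabetic ganglia for 7 of 10 genes (9 of 10 after median centring), with a summed signal of 9.63 to 10.55 in control and 10.33 to 10.86 in diabetic arrays on the log2 scale. Control replicate 2 was the lowest array for that sum too, and the highest for the sum of 10 skeletal muscle markers (9.96, against 8.18 to 8.39 in the other 5 arrays). Cd163, a scavenger receptor of resident macrophages, read 5.75, 5.35 and 5.93 in controls and 6.39, 6.51 and 6.85 in diabetic ganglia (limma adjusted p = 0.53), with the 3 controls under the background percentile. It was the 1 marker of the 10 with an unadjusted p under 0.05, beside 7.85% of all clusters. Of the 10 markers 3 exceeded the background percentile in 6 of 6 arrays. Their part in the Tgfb1 difference was not tested.

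Tgfb2, a ligand known from developing neurons and glia, had a higher mean with overlap. Controls read 6.99, 6.78 and 6.86, and diabetic ganglia 7.55, 6.88 and 7.30 (log2 signal, chromosome 13, 105039639 to 105141813, minus strand). Diabetic replicates 1 and 3 were above every control, while diabetic replicate 2 lay among them. The means were 6.88 ± 0.11 and 7.24 ± 0.34 (SD, n = 3), a log2 fold change of 0.37 with a 95% interval of -0.03 to 0.77 (limma adjusted p = 0.65). Leaving out diabetic replicate 1 gave 0.21 and leaving out diabetic replicate 2 gave 0.55, so its size rested on which diabetic rat was included.

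Tgfb3 was lower in each diabetic rat than in each control, by a small amount. Controls read 7.14, 7.09 and 7.07, and diabetic ganglia 6.68, 6.84 and 6.998 (log2 signal, chromosome 6, 109913757 to 109936229, minus strand). The gap between the groups was 0.08, while the diabetic arrays differed among themselves by more than that. The means were 7.10 ± 0.04 and 6.84 ± 0.16 (SD, n = 3), a log2 fold change of -0.26 with a 95% interval of -0.53 to 0.01 (limma adjusted p = 0.64). The difference was -0.18 without diabetic replicate 1 and -0.19 with the arrays centred on their medians.

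**Figure D2:**
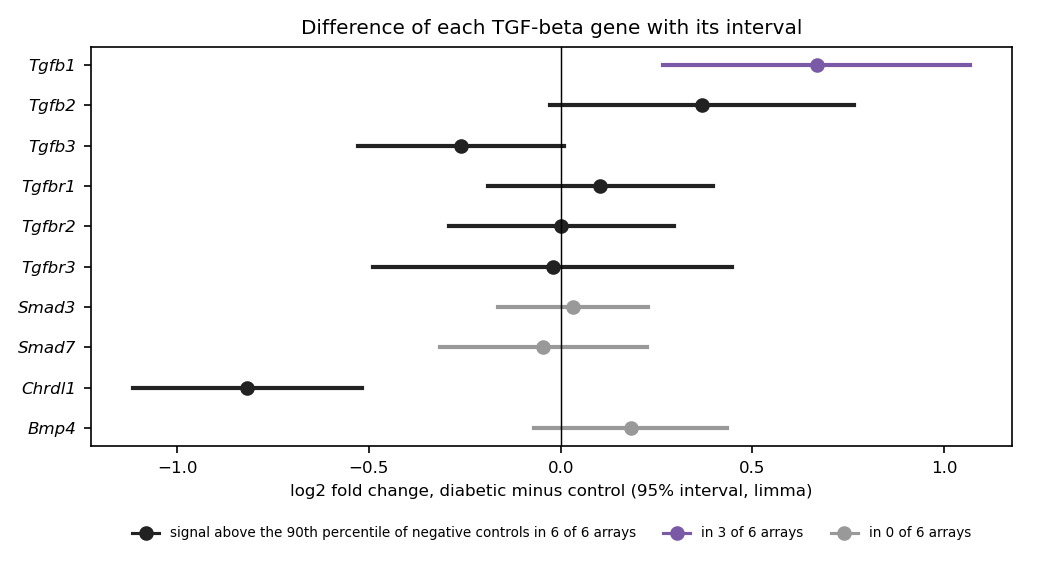
Log2 fold change of each gene, diabetic minus control, with its 95% interval from limma (n = 3 rats per group). Colour gives the number of arrays in which the signal exceeded the 90th percentile of the negative controls. Intervals of Tgfb1 (0.27 to 1.07) and Chrdl1 (-1.12 to -0.52) do not reach 0, and the other 8 do.

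The receptor genes read much the same in both groups. Tgfbr2, the ligand-binding kinase, had means of 9.57 ± 0.14 and 9.57 ± 0.10 (log2 signal, SD, n = 3, chromosome 8, 124310289 to 124399246, minus strand), and its 95% interval ran from a 0.817-fold to a 1.23-fold ratio of diabetic to control. Tgfbr3, betaglycan, ranged from 9.89 to 10.51 in controls and from 10.01 to 10.56 in diabetic ganglia (chromosome 14, 3506416 to 3680518, plus strand), and its wider spread leaves a 95% interval of a 0.713-fold to a 1.36-fold ratio. Tgfbr1, the signalling kinase, is listed as 2 clusters on the plus strand of chromosome 5. The brighter, at 64566771 to 64585196, had means of 7.85 ± 0.14 and 7.96 ± 0.13, and the RefSeq-annotated one, at 63056019 to 63124107, had 7.86 ± 0.19 and 7.93 ± 0.13 (SD, n = 3). The clusters lie 1.44 Mb apart, and their signals differed by at most 0.10 in any array. The array annotation does not say whether they share probes. Their log2 fold changes were 0.10 and 0.07 (limma adjusted p = 0.83 and 0.90). The intervals show that differences of more than 1.40-fold were outside the 95% range for each receptor's lead cluster.

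Signals of the Smad genes were dim. Smad3, the transcription factor that carries the TGF-beta signal, read 4.23 to 4.28 in controls and 4.24 to 4.31 in diabetic ganglia (log2 signal, 238 probes, chromosome 8, 68552735 to 68678901, minus strand). Smad7, the inhibitory Smad, read 4.15 to 4.50 and 4.19 to 4.40 (80 probes, chromosome 18, 71395830 to 71424164, plus strand). Both exceeded the median of the negative controls in every array and stayed under their 90th percentile. Their log2 fold changes were 0.03 (95% interval -0.16 to 0.23) and -0.05 (-0.32 to 0.22). The groups overlapped for both genes, and RMA can compress differences at such levels.

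Chrdl1, which encodes chordin-like 1, a secreted antagonist of BMP4, had the largest difference of the 10 genes. Control replicates 1, 2 and 3 read 7.97, 8.18 and 7.85, and diabetic replicates 1, 2 and 3 read 7.15, 7.08 and 7.32 (log2 signal, 144 probes, chromosome X, 114554359 to 114658963, minus strand). Every diabetic array was lower than every control array, with a gap of 0.53 between the groups, which is wider than the range within either. The means were 8.00 ± 0.17 and 7.19 ± 0.12 (SD, n = 3). The log2 fold change was -0.82 with a 95% interval of -1.12 to -0.52 (SE 0.13, limma adjusted p = 0.50), and its unadjusted p ranked 27th of 68842 clusters. With any 1 array left out it lay between -0.89 and -0.73, with an adjusted p of 0.28 to 0.97. It did not pass the adjusted threshold under any of the alternatives run.

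Markers of myelinating Schwann cells were lower beside Chrdl1. Of 10 markers 9 had lower means in diabetic ganglia and 8 had an unadjusted p under 0.05, beside 7.85% of all clusters. Their summed log2 signal was 18.67 to 18.94 in controls and 18.11 to 18.64 in diabetic arrays. Markers of fibroblasts had lower means for 7 of 10 genes (5 of 10 after median centring), 0 of them with an unadjusted p under 0.05, and summed signals of 15.01 to 16.24 and 15.98 to 16.10. Control replicate 2, the highest array for Chrdl1, was the lowest for the fibroblast sum. Means were also lower for 8 of 10 pericyte and smooth muscle markers (6 of 10 after median centring) and for 10 of 10 skeletal muscle markers. The skeletal muscle sum was high in control replicate 2 only (9.96). Control replicates 1 and 3 (8.18 and 8.20) lay below the diabetic arrays (8.24 to 8.39). Of those 10 markers 8 were under the background percentile in every array. Means were higher for 10 of 10 sensory neuron and 8 of 10 endothelial markers. The part of any of these cell types in the Chrdl1 difference was not tested.

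Bmp4, the ligand Chrdl1 is known to bind, read 3.98, 3.70 and 3.99 in controls and 4.02, 4.02 and 4.18 in diabetic ganglia (log2 signal, chromosome 15, 20776061 to 20791012, minus strand). The diabetic arrays were all above the controls, by a gap of 0.03. Its log2 fold change was 0.18 with a 95% interval of -0.07 to 0.43 (limma adjusted p = 0.69), and was 0.09 when control replicate 2 was left out. These signals lay around the median of the negative controls, above it in the 3 diabetic arrays and under it in the 3 control arrays. The Bmp4 signal was thus not told apart from background.

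The rest of the pathway was read from 6 lists of 118 genes, of which 117 were on the array. None passed adjusted p 0.05 (0 of 117 in limma). Of the 117, 20 had an unadjusted p under 0.05, 7 higher and 13 lower (12 and 8 after median centring), beside the 7.85% of all clusters. Among the 22358 lead clusters of coding genes 886 were higher and 746 lower by that rule, before centring. The median log2 fold change of the 117 genes was 0.01, with 64 higher and 53 lower (79 and 38 after median centring). In this wider set 42 genes exceeded the background percentile in 6 of 6 arrays.

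**Figure D3:**
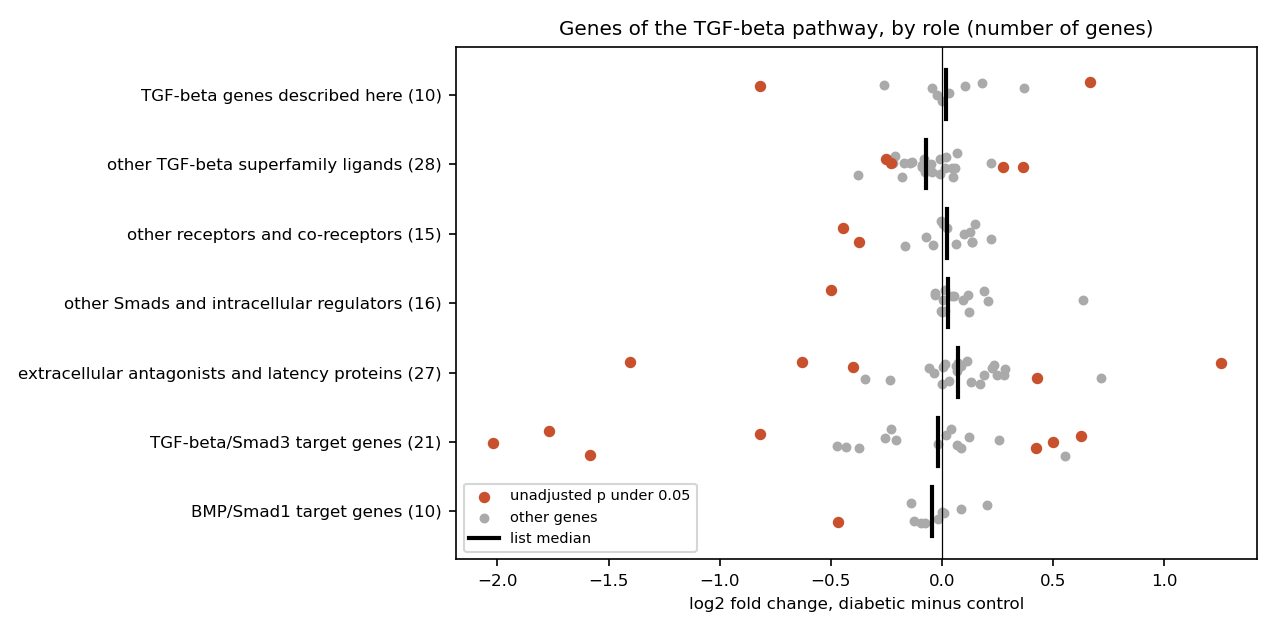
Log2 fold change, diabetic minus control, of every measured gene of the TGF-beta pathway by role, 1 point per gene (lead cluster), with red points for an unadjusted p under 0.05 and black bars for list medians. The medians lie between -0.07 and 0.07. The genes farthest from 0 are antagonists and latency proteins (-1.40 to 1.25) and TGF-beta/Smad3 target genes (-2.02 to 0.63).

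Of 27 antagonists and latency proteins 20 had higher and 7 lower means (median 0.07). An unadjusted p under 0.05 was seen for 5, beside 7.85% of all clusters. Thbs1, the matricellular thrombospondin that releases active TGF-beta from its latent complex, read 6.40, 6.00 and 6.51 in controls and 6.80, 7.33 and 8.53 in diabetic ganglia (log2 signal). Every diabetic array was above every control, but diabetic replicate 3 stood far above the other two. Its log2 fold change was 1.25 (95% interval 0.38 to 2.13, limma adjusted p = 0.57) and 0.76 without that rat. Control replicates 2 and 3 lay under the background percentile, so this fold too rests partly on signals near background and is an estimate only.

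Itgb8, whose integrin binds and activates latent TGF-beta, differed in the opposite direction. Its brightest cluster read 12.96, 12.49 and 13.32 in controls and 10.81, 11.99 and 11.76 in diabetic ganglia, a log2 fold change of -1.40 (95% interval -2.13 to -0.67, limma adjusted p = 0.53). That cluster is an unspliced stretch of 30 probes without a coding class, next to the RefSeq Itgb8 cluster of 218 probes on the same strand of chromosome 6. The RefSeq cluster gave -1.11 (95% interval -1.85 to -0.38, adjusted p = 0.55), also without overlap. Ltbp2, a matrix protein of the latent TGF-beta binding family, was at 4.50 ± 0.09 and 4.93 ± 0.13 (SD, n = 3), both under the background percentile. Lower means were those of Fstl3, an activin-binding follistatin-like protein (6.35 ± 0.42 and 5.72 ± 0.13), and Sostdc1, a BMP and Wnt antagonist (8.44 ± 0.15 and 8.04 ± 0.29; SD, n = 3). The 3 diabetic Fstl3 signals lay under the background percentile, and its log2 fold change of -0.63 was -0.41 without control replicate 1.

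Receptors and co-receptors outside the set had a median of 0.02 (9 of 15 higher, 12 of 15 after median centring). Of the 15, 2 had an unadjusted p under 0.05, beside 7.85% of all clusters. Both were lower: the activin receptor Acvr2a (8.72 ± 0.05 and 8.35 ± 0.08) and endoglin, Eng, the TGF-beta co-receptor of endothelium (8.09 ± 0.29 and 7.65 ± 0.04, SD, n = 3). Of 10 endothelial markers 8 had higher means. The 1 with an unadjusted p under 0.05 (0 after median centring), beside 7.85% of all clusters, was lower. Their summed log2 signals overlapped, at 10.96 to 11.63 in controls and 11.03 to 11.47 in diabetic arrays. The part of endothelial cells in the Eng difference was not tested. Bmpr2, the type II receptor of BMPs, was at 14.59 ± 0.09 and 14.62 ± 0.17.

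Among other Smads and intracellular regulators 12 of 16 had higher means (15 after median centring), with a median of 0.03. Pmepa1, a TGF-beta-induced inhibitor that binds Smad2 and Smad3, was the 1 gene of 16 with an unadjusted p under 0.05, beside 7.85% of all clusters. Its control mean was 10.83 ± 0.32 and its diabetic mean 10.33 ± 0.28 (SD, n = 3, limma adjusted p = 0.62). After median centring it no longer met that rule, and its log2 fold change of -0.50 was -0.32 without control replicate 3. Smad9, a BMP-pathway Smad, read 9.79, 10.13 and 9.46 in controls and 10.72, 9.79 and 10.77 in diabetic rats, with overlap (log2 fold change 0.64, 95% interval -0.0016 to 1.27, adjusted p = 0.64), and gave 0.95 without diabetic replicate 2. Smad2 and Smad4, the partners of Smad3, differed by 0.001 and 0.09.

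Known targets of TGF-beta and Smad3 went both ways, with 10 of 21 higher, 11 lower and a median of -0.02 (0.06 after median centring). An unadjusted p under 0.05 was seen for 7, beside 7.85% of all clusters. Of these 7 genes 4 were lower (Col1a1, Col1a2, Col3a1 and Timp1) and 3 higher (Junb, Ctgf and Tgfbi). Junb and Ctgf lay under the background percentile in 6 of 6 arrays, while Tgfbi and the 4 lower genes exceeded it in 6 of 6. The control signals of Junb were also under the median of the negative controls. Col1a1, the alpha-1 chain of type I collagen, read 9.45, 9.15 and 9.80 in controls and 6.58, 8.13 and 7.62 in diabetic ganglia. Its log2 fold change of -2.02 (95% interval -2.84 to -1.21, limma adjusted p = 0.53) was the widest of the 117 pathway genes, and diabetic replicate 1 was the lowest array for it as for Col1a2, Col3a1 and Itgb8. Tgfbi, a matrix protein named for its induction by TGF-beta, was at 9.95 ± 0.57 and 10.58 ± 0.18 (SD, n = 3, limma adjusted p = 0.62). The fibroblast marker sums given beside Chrdl1 overlapped between the groups, and the part of cell makeup in the collagen values was not tested.

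Targets of BMP signalling had a median of -0.05, with 4 of 10 higher. Id2, an inhibitor of helix-loop-helix factors, was at 9.01 ± 0.08 and 8.54 ± 0.36 (SD, n = 3, limma adjusted p = 0.61), with diabetic replicate 3 at 8.94 near the controls. Its log2 fold change of -0.47 was -0.31 without diabetic replicate 1, and after median centring 0 of the 10 targets had an unadjusted p under 0.05 and the list median was 0.03. Id1 and Id3, the targets most often used as BMP readouts, had log2 fold changes of 0.01 and 0.0005, and Id3 varied among the diabetic rats (SD 0.48). Of 28 other genes listed as ligands of the superfamily 9 had higher means and 19 lower (14 and 14 after median centring). Of these 28, 25 lay under the background percentile in every array. The list counts Bmp1 (log2 fold change -0.38), which despite its name encodes a protease and not a ligand. Bmp3 (5.12 ± 0.13 and 5.48 ± 0.13) and Gdf10 (3.99 ± 0.03 and 4.26 ± 0.13; SD, n = 3) were the higher ones with an unadjusted p under 0.05, and Gdf7 and Inhbc the lower ones. Beside these 4 of 28 genes, 7.85% of all clusters met that rule. All 4 were dim, and after median centring or quantile normalization neither lower gene met it. Without control replicate 3 Inhbc moved from -0.25 to -0.15.

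**Figure D4:**
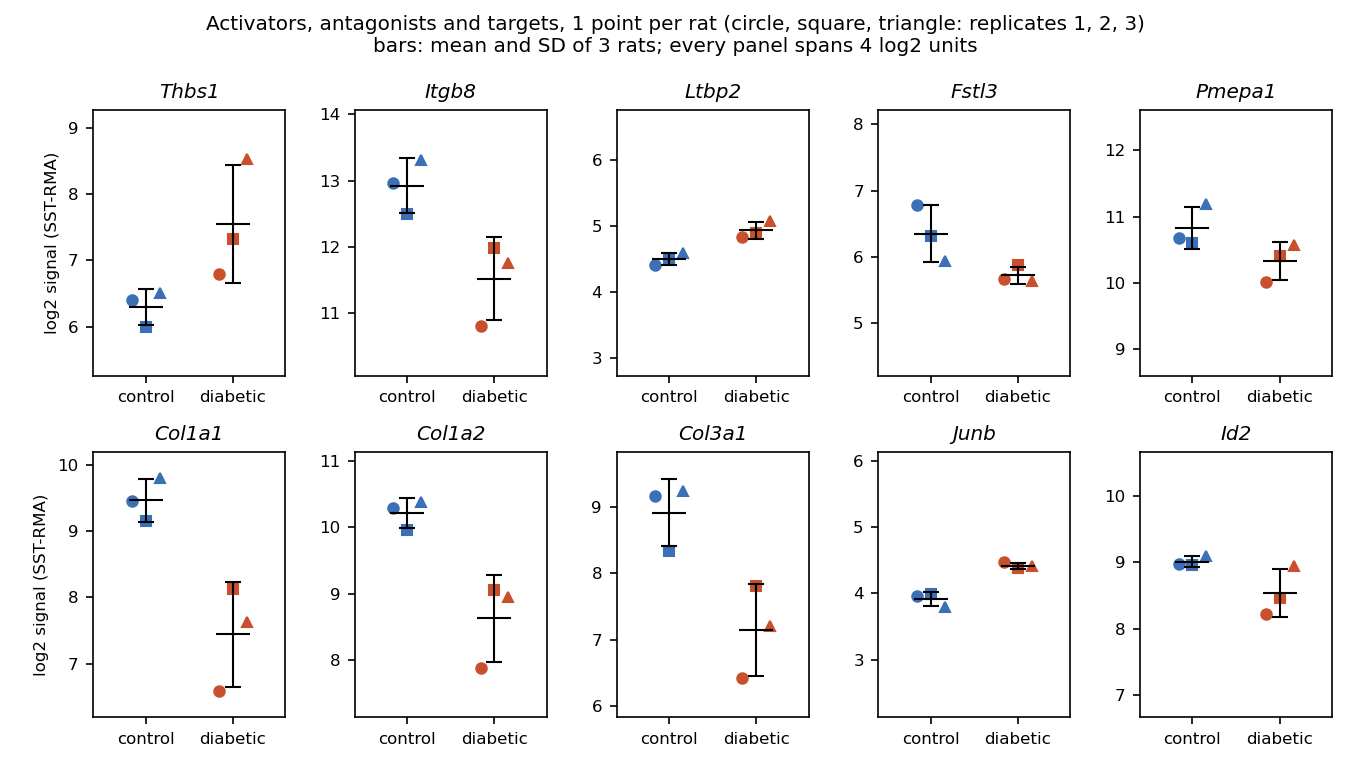
Log2 signal of 10 genes that release, bind, inhibit or respond to TGF-beta and BMP, in control (blue) and diabetic (red) ganglia, 1 point per rat with the mean and SD of 3 rats. Panels share one span of log2 units. Thbs1 is spread from 6.80 to 8.53 among diabetic rats, and Col1a1 from 6.58 to 8.13.

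Of non-coding clusters that overlapped a gene of the set or lay within 10 kb of it there were 11, at 7 of the 10 genes, and none at Tgfb1, Tgfbr1 or Chrdl1. No such cluster exceeded the background percentile in all arrays, and 0 passed adjusted p 0.05 in limma. By the rule of an unadjusted p under 0.05 there was 1 of the 11, beside 7.85% of all clusters. This one, NONMMUG002739, is a transcript that the annotation takes from mouse, inside Tgfb2 on the same strand at 105112647 to 105115437 of chromosome 13, with 30 probes. It read 4.51, 4.45 and 4.64 in controls and 4.002, 4.07 and 4.04 in diabetic ganglia, under the background percentile in every array. The groups did not overlap, and its direction was opposite to that of Tgfb2 (log2 fold change -0.50, 95% interval -0.71 to -0.29, limma adjusted p = 0.53). The other 10 differed by -0.22 to 0.05.

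Profiles across the 6 arrays were compared with those of 9379 coding genes above background, by the root mean square difference of log2 values after each gene was centred on its mean. Closest to Chrdl1, whose own values lay 0.43 from their mean by the same measure, were Mrgprx3, a sensory neuron receptor (0.13), Fa2h, a fatty acid hydroxylase of myelin lipids (0.13), and Vwa1, a matrix protein (0.14). Closest to Tgfb1 were LOC100359969 (0.12), the AceView gene chubloy (0.12) and Cp, the copper-carrying ferroxidase ceruloplasmin (0.12). Closest to Tgfb2 were Narf (0.07), HOXA6 (0.08) and Serpini1, the neuronal serpin (0.09), all with diabetic replicate 1 high and diabetic replicate 2 near the controls. With 6 arrays and so many genes, some close profiles are found for any gene.

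**Figure D5:**
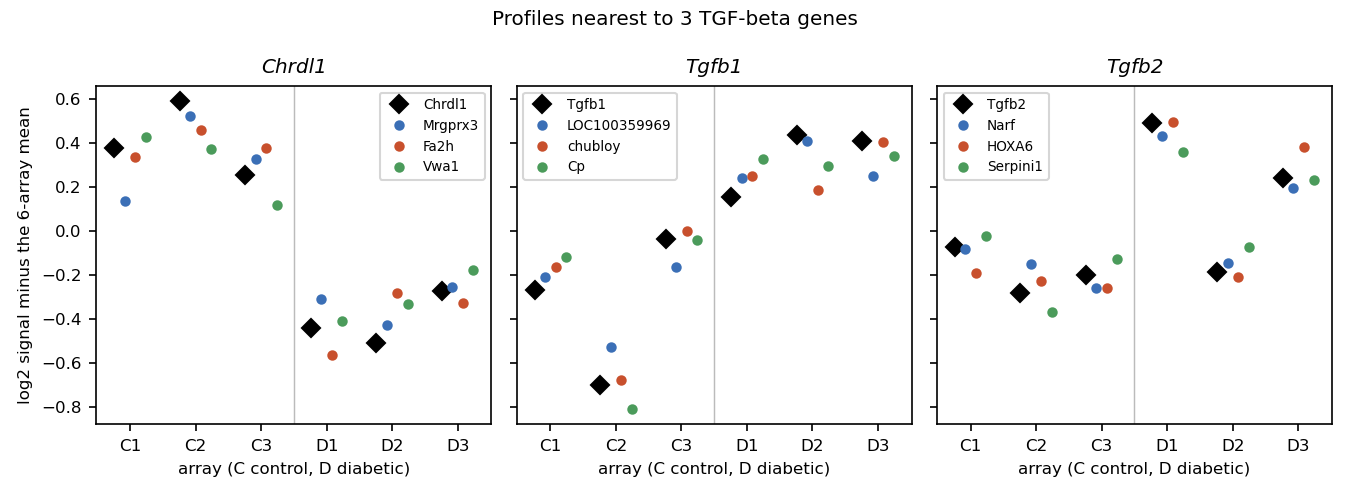
Log2 signal minus the 6-array mean, per array, for Chrdl1, Tgfb1 and Tgfb2 (black diamonds) and the 3 coding genes closest to each (coloured points); C1 to C3 are control and D1 to D3 diabetic rats. Chrdl1 and its neighbours separate the groups, while Tgfb2 and its neighbours are highest in diabetic replicate 1.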

How the data were processed

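RNA of lumbar dorsal root ganglia from 6 rats (3 diabetic, 3 control) was hybridised to 1 Affymetrix rat transcriptome array per rat, from 100 ng of total RNA. Each transcript cluster has 1 log2 signal per array, deposited by the authors after gene-level SST-RMA, per the file headers. The submitters' processing notes list RMA without a version, and no source used here states the genome build. Coordinates of clusters are those of the deposited annotation, one of whose source names refers to the rat assembly rn6. RMA compresses dim differences, and the array medians of the deposited signals still ran from 3.95 to 4.15. The series matrix held the same numbers (0 cells differed). The 6 columns of detection calls, 1 per array, were not used. The number of arrays limits the precision.

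After 1738 control probe sets were left out, 68842 clusters were tested as diabetic minus control with limma 3.58.1 in R 4.3.3 (group as the only term, eBayes with intensity trend, Benjamini-Hochberg over all clusters, threshold 0.05); fits were tested on simulated data. No filter on dim clusters was used. An exact permutation test of 3 against 3 rats cannot go below p = 0.1 and was not used. The genes and lists were chosen with earlier results of these data known. Named genes are the 10 members, up to 4 genes of smallest p per pathway list, markers beside a result (Cd163 has the smallest p of its list), the 3 nearest profiles of Chrdl1 and of the other 2 members of greatest SD, and non-coding neighbours within 10 kb with an unadjusted p under 0.05. Bmp1, Bmpr2, Smad2, Smad4, Id1, Id3, Timp1, Ctgf, Tgfbi and Sostdc1 were named after their values were seen. Promoter sequences are those of RefSeq (GRCr8), matched by symbol for 10 of 10 genes. Replicate numbers were not treated as pairs: deviations of same-numbered rats correlated at 0.04, -0.12 and -0.13, and those of other rats at -0.05 to 0.15. With 3 rats per group these values cannot show whether the rats were paired. 1 gene of the target list is not reported here by name.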

Additional observations from a re-analysis of the deposited data

How the results depend on the processing

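No gene of the set passed adjusted p 0.05 under any of the 16 alternatives in limma. Chrdl1, Tgfb1, Tgfb2, Tgfb3, Tgfbr1, Smad3 and Bmp4 kept their direction in all that gave a value (Bmp4 was below the filter on dim clusters). Changes of trend, robustness, moderation, filter or block leave each log2 fold change as it is, and the series matrix holds the same numbers. Direction could turn only with array weights, median centring, quantile normalization, an array left out or, for Tgfbr1, the mean of its clusters. Over the 16 alternatives Chrdl1 ranged from -0.89 to -0.73 and Tgfb1 from 0.48 to 0.82. Genes near 0 changed sign. With an array left out Tgfbr2 ranged from -0.055 to 0.080, Tgfbr3 from -0.19 to 0.12 and Smad7 from -0.15 to 0.029. Array weights gave -0.030 for Tgfbr2 and 0.014 for Tgfbr3, median centring 0.054 for Tgfbr3 and 0.028 for Smad7, and quantile normalization -0.047 for Tgfbr2 and 0.022 for Smad7.

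Genes of the set with an unadjusted p under 0.05 numbered 2, but 4 after median centring (with Tgfb2 and Bmp4) and 4 after quantile normalization (with Tgfb3 and Bmp4), and 2 to 3 with an array left out. Over all clusters 4 passed the adjusted threshold, 0 without moderation, 2 with the filter, and 1 to 5 with an array left out (1 without control replicate 2, 2 without control replicate 3 or diabetic replicate 1). List medians moved with the scaling: under median centring to 0.0037 for ligands, 0.10 for receptors, 0.10 for Smads and 0.15 for antagonists. The ligand median was -0.0053 after quantile normalization and 0.033 with the filter, and the receptor median ran from -0.0079 to 0.11 with an array left out. The cause was not tested. No pairing of the rats is known. With the replicate number as a block 0 genes of the set passed the adjusted threshold, 3 had an unadjusted p under 0.05, and 3 of all clusters passed.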
